A study of Homo sapiens with 21 samples.

Results

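Microglia-like cells lacking SORL1 were compared with unedited cells through their open chromatin. The comparison used the 6 libraries titled SORL1-KO and WT, 3 of each, out of 21 libraries in the series, and the 464954 peaks of their lists out of 1604926. Both lines came from the human embryonic stem cell line H9 (WA09), an established line. SORL1-KO carried a homozygous CRISPR/Cas9 edit, which the protocol lists as SORL1 R744X, and WT was unedited. All cells were taken through haematopoietic progenitors and then through 28 days of microglial differentiation with IL-34, TGF-beta and M-CSF, with CD200 and CX3CL1 added at the end. For each line 80000 viable sorted cells were used, and the libraries were made by Omni-ATAC, a protocol whose transposase inserts sequencing adapters into open DNA. The labels do not say how many edited clones were used, whether replicates were separate differentiations, or whether the CX3CR1 reporter lines derived from the control and SORL1 lines were used here. P-values therefore rest on the spread among these libraries alone, and that spread may be technical.

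SORL1 encodes a receptor of the VPS10 family that sorts cargo between endosomes, the Golgi and the cell surface. Together with the retromer complex it steers the amyloid precursor protein away from the compartments where it is cleaved, and loss-of-function variants are linked to Alzheimer disease. Microglia are the resident macrophages of the brain. Open chromatin at a gene's start site usually accompanies the ability to transcribe it, while open regions inside and between genes include enhancers.

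A peak list says where a library had enough tags to be called and gives no height, so a region is either called or not called. The SORL1-KO lists held 84005, 58237 and 84066 peaks in replicates 1, 2 and 3, and the WT lists held 96344, 46991 and 95311. SORL1-KO was thus the shorter list in replicates 1 and 3 and the longer in replicate 2, and the lines overlapped (difference of the means on the chromosomes used -4119 peaks, exact two-sided permutation p = 0.6, where 3 against 3 libraries cannot go below 0.1). Depth followed the replicate number, with 63.9, 12.8 and 47.6 M tags (M, mega) in SORL1-KO and 65.4, 15.5 and 48.5 M in WT. The share of tags inside peaks was 46.4%, 69.2% and 58.4% in SORL1-KO against 57.6%, 72.5% and 73.2% in WT. It was lower in SORL1-KO at each replicate number, although the lines overlapped (exact two-sided permutation p = 0.3), and its part in the differences given here was not tested.

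**Figure D1:**
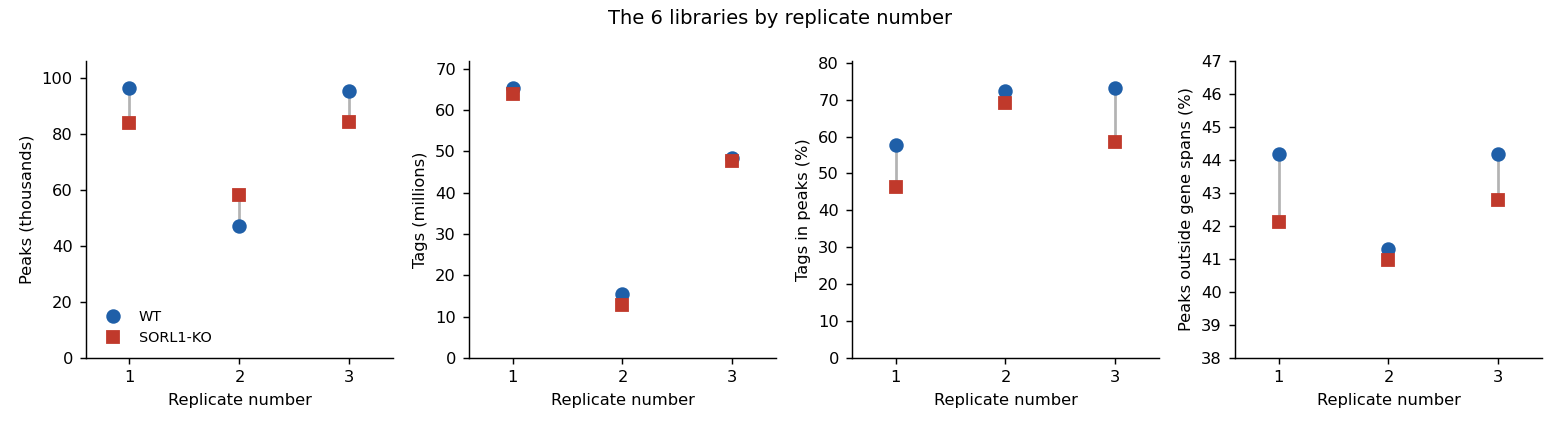
Peak number, tags, the share of tags in peaks and the share of peaks outside gene spans, each plotted against replicate number (circles WT, squares SORL1-KO, grey lines join libraries of one number). The right-hand axis does not start at 0. SORL1-KO had the longer list in replicate 2 (58202 against 46956 peaks on the chromosomes used) and the shorter list in replicates 1 and 3, and both of its shares, of tags in peaks and of peaks outside gene spans, were the lower ones at every number.

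The cell type labels were checked against marker genes. Start sites of microglia and macrophage genes (SPI1, CSF1R, AIF1, TREM2, TYROBP, CX3CR1, P2RY12, C1QA, CD68 and ITGAM) were called for 10 of 10 markers in each SORL1-KO library and in WT replicates 1 and 3, and for 8 in WT replicate 2, which lacked AIF1 and TREM2. No start site of 6 neural markers was called in any of the 6 libraries, and NANOG, a pluripotency factor, had no region at all. Of 6 mesenchymal markers, the start sites of COL1A1 and COL1A2 were called in 3 of 3 SORL1-KO libraries and in 2 of 3 WT libraries. SOX2, another pluripotency factor that is also neural, was called at its start site in 3 of 3 SORL1-KO and 2 of 3 WT libraries, and DPPA4 in 2 and 0. Start sites of T cell markers were called for 3, 2 and 3 of 4 in SORL1-KO and 3 of 4 in each WT library, with CD3E and BCL11B in all 6. Erythroid, megakaryocyte and mast markers gave 3, 2 and 3 of 7 in SORL1-KO and 3, 1 and 3 in WT, with KIT alone in all 6. Endothelial markers gave 2, 1 and 2 of 5 in each line, with PECAM1 alone in all 6. Neutrophil markers gave 1, 0 and 1 of 4 in each line, from CSF3R. The part of any of these in the results was not tested.

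The targeted gene was called at its start site in all 6 libraries. The region chr11:121451673-121452940, in the coordinates of the deposited lists, covered 1138, 629 and 841 bp in SORL1-KO replicates 1, 2 and 3 and 1184, 634 and 922 bp in WT. The 2 lines overlapped, and the shallow replicate 2 was narrowest in both. Of 30 regions assigned to SORL1, 23, 14 and 24 were called in SORL1-KO and 27, 15 and 25 in WT, and none was called in all libraries of one line and none of the other. A stop codon does not remove an open region, so this check neither bears out nor contradicts the labels.

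Across the rest of the genome, the clearest difference lay at CAT, which encodes catalase, the peroxisomal enzyme that breaks down hydrogen peroxide. The CAT start-site region, chr11:34438345-34439846, covered 1502, 1037 and 1007 bp in WT replicates 1, 2 and 3, and no SORL1-KO library had a peak there. Every one of the 15 libraries of the other 5 lines also had a peak, between 664 and 1477 bp wide with a median of 1199 bp. The region was not a marginal one. With file order taken as a rank of strength, its median place in the WT lists was at percentile 85.9, where 100 is the top. WT still called it in 3 of 3 libraries when only the first 75% of each list was used. The same held when all lists were shortened to the 46991 peaks of the shortest. Shortening a list adds no peak, so only the WT calls could change, and 0 of 3 SORL1-KO calls was fixed beforehand.

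Peaks around CAT were present in SORL1-KO. A region 5536 bp before the gene, chr11:34431906-34433398, covered 1480, 1355 and 1431 bp in SORL1-KO and was called in 2 of 3 WT libraries. Inside the gene, chr11:34450814-34451680 was called in 3 of 3 SORL1-KO and 2 of 3 WT libraries, and chr11:34464341-34465139 in all 6. Of the 7 regions assigned to CAT, SORL1-KO replicates 1, 2 and 3 called 5, 4 and 5 and WT called 6, 3 and 5. The absence therefore concerned the start site and not the locus as a whole, and the mean depth-adjusted call over the 7 regions (explained with the gene test) differed by 0.01 (SE 0.06).

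**Figure D2:**
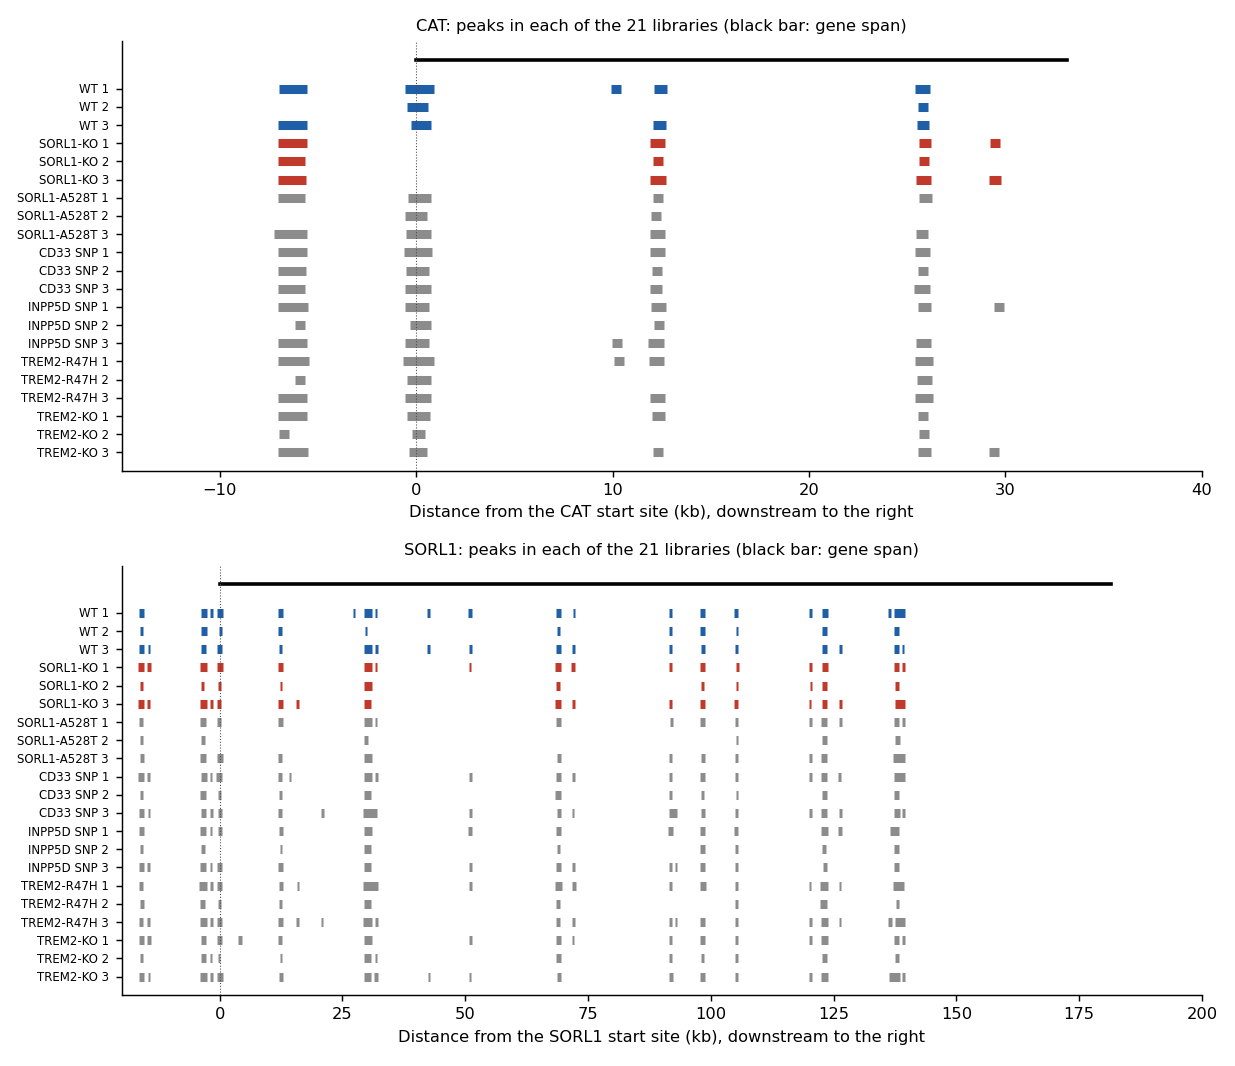
Peaks of all 21 libraries (rows; blue WT, red SORL1-KO, grey the other 5 lines) by distance in kb from the start site of CAT (upper panel) and SORL1 (lower panel), with the gene span as a black bar. At CAT the 3 red rows have no bar at distance 0, where the other 18 rows have one, while the upstream region nearest to the gene and both intragenic regions shared with WT are filled in the 3 red rows. At SORL1 all 6 rows of the 2 lines have a bar at distance 0.

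The sequences before the start sites show what the absent and the retained peaks covered. Given 5′ to 3′ are the 250 bases before the start of CAT, absent in SORL1-KO, of PCP4L1, another WT-only start site, of HFM1, a SORL1-KO-only start site, and of SORL1, called in both lines. They are taken from the RefSeq promoter table of GRCh38.p14, with CAT, PCP4L1 and SORL1 on the plus strand and HFM1 on the minus strand. Capitals mark CCAAT boxes (CCAAT) and GC boxes (GGGCGG), searched on both strands; none of those marked overlap each other.

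CAT: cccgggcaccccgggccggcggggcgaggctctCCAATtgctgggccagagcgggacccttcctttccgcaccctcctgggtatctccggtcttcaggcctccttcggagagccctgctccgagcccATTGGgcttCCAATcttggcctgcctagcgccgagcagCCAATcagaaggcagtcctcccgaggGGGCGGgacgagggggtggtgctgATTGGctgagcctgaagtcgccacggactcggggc

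PCP4L1: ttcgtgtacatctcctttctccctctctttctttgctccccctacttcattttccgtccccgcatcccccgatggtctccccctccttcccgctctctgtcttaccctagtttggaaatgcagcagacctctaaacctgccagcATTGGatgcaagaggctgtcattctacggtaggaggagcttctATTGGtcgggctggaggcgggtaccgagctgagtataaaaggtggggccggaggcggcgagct

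HFM1: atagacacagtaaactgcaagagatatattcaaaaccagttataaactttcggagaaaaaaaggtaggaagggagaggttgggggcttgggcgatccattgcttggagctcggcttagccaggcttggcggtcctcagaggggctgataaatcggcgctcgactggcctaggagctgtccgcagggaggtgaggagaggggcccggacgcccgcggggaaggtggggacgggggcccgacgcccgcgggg

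SORL1: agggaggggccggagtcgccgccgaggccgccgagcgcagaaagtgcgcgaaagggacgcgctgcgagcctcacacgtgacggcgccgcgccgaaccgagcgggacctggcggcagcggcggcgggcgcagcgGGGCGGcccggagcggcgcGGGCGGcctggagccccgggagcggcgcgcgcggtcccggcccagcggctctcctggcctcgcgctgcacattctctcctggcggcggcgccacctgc

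All 250 bases of CAT, PCP4L1 and SORL1 and 244 of HFM1 lay under the regions described. CAT held 5 CCAAT boxes, whose first bases lay 217, 123, 114, 85 and 35 bases before the start, and 1 GC box. CCAAT boxes occurred in 34.4% of 15812 promoters, and 5 or more in 0.417%. PCP4L1 held 2 CCAAT boxes and HFM1 neither motif, while SORL1 held 2 GC boxes and no CCAAT box. Of the other start sites called in one line only that are in the table, WT-only SNAP91 held 2 GC boxes and no CCAAT box, WT-only LOC107985043 held 1 CCAAT box, and SORL1-KO-only ACACB held neither. Their regions covered 70, 0 and 0 of those 250 bases. GC boxes occurred in 56.0% of promoters. In all, 9 motifs were searched, and these 2 were marked after the matches had been seen. The others were the E-box (CACGTG, 7.83% of promoters), the AP-1 site (TGACTCA, 3.17%), the PU.1 core (GAGGAAG, 11.7%), the FOXO core (TGTTTAC, 2.26%), the core nuclear receptor motif (AGGTCA, 10.3%), the antioxidant response element core (TGACNNNGC, 11.5%) and the RUNX site (TGTGGT, 8.90%). SORL1 also held 1 E-box and 1 antioxidant response element core, which overlapped each other. These are letter matches and say nothing of which factors were bound.

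CAT was the sole such case among constant start sites. Of 7590 start-site regions called in every one of the 15 libraries of the other lines, 7390 were called in all 6 libraries of SORL1-KO and WT, and 1 was called in 3 WT and no SORL1-KO library (0.0132%). None showed the opposite pattern. The next closest were ZNF717 and OR4M2B, each called in 3 WT and 1 SORL1-KO library. ZNF717, a zinc finger gene, covered 1274, 1295 and 1141 bp in WT and 501 bp in SORL1-KO replicate 1 alone, and OR4M2B is an olfactory receptor gene. Both belong to multigene families, and whether reads from near copies bear on their calls was not tested. A further 174 were missed by 1 WT library and 19 by 1 SORL1-KO library.

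Over all regions, merging peaks that shared at least 1 bp gave 123458 regions, 713 bp wide at the median, and 37330 of them were called in all 6 libraries. WT-only regions, called in 3 of 3 WT and 0 of 3 SORL1-KO libraries, numbered 393 (0.318% of regions), and SORL1-KO-only regions, the reverse, numbered 109 (0.0883%). Most were weak. Their median covered width was 501 bp in both sets, close to the smallest peak the caller reports, against 888.5 bp for regions called in all 6. The median place in file order was at percentile 22.0 for WT-only and 16.5 for SORL1-KO-only regions, against 75.2 for regions called in all 6. The counts depended on which libraries were used. Leaving libraries out loosens the rule, so the counts could then only stay at 393 and 109 or rise. Leaving out replicate 1 of both lines gave 1206 WT-only and 1217 SORL1-KO-only regions, leaving out replicate 2 gave 4901 and 1027, leaving out replicate 3 gave 1187 and 637, and leaving out WT replicate 2 alone gave 4398 and 116. Without SORL1-KO replicate 1, 2 or 3 there were 790, 464 or 955 WT-only and 304, 999 or 264 SORL1-KO-only regions, and without WT replicate 1 or 3 there were 714 or 559 and 787 or 370. When the lists were cut to equal length the counts were 325 and 287, of which 5 and 1 were among the 393 and 109. With the first 75% of each list they were 306 and 75, of which 42 and 2 were.

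Of the 5 WT-only regions that kept their pattern with equal list lengths, 1 was the CAT start site. Another lay at an end of USP43, which has no listed start. The others lay inside CYBB, inside PLXDC2 and on chromosome 4 far from any gene. As at CAT, shortening could change only the calls of the line that had the peaks. CYBB encodes the catalytic subunit of the phagocyte NADPH oxidase, which makes superoxide. Its region, chrX:37799740-37801293, covered 1459, 501 and 1457 bp in WT and was absent from all SORL1-KO lists, and 13 of 15 libraries of the other lines called it. USP43 encodes a deubiquitinase, and its region, chr17:9644448-9646264, covered 1183, 501 and 1568 bp in WT and was called in 9 of the 15. PLXDC2 encodes a membrane protein related to plexins, and its region, chr10:19844831-19846337, covered 1240, 501 and 1507 bp in WT and was called in 12 of the 15. The chromosome 4 region, chr4:159946816-159947645, lay 586643 bp from the nearest gene span, covered 772, 501 and 821 bp in WT and was called in 13 of the 15. In these 4 regions, as in the depth, WT replicate 2 was the narrowest. The SORL1-KO-only region that stayed was chr11:45073310-45074199, 19960 bp from PRDM11, a PR domain gene, with 890, 656 and 801 bp in SORL1-KO and calls in 8 of the 15.

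Only 8 of the 393 WT-only regions lay at a start site (0.0616% of 12979 start-site regions), meaning within 1 kb of a listed start or, for genes without a listed start, of either gene end. Besides CAT and USP43 they were SNAP91, which encodes a clathrin coat assembly protein of synapses, VNN1, a pantetheinase, PCP4L1, TMEM132A, CRTAM, a receptor of T and NK cells, and LOC107985043. SNAP91 covered 688, 501 and 865 bp in WT and VNN1 774, 501 and 501 bp, and 9 of the 15 other libraries called each. PCP4L1 covered 501, 501 and 627 bp, and 8 of the 15 called it. The regions of the last 3 were called in 6, 5 and 3 of the 15. Start sites among the 109 SORL1-KO-only regions were 3 (0.0231%), those of ACACB, PLCB4 and HFM1. USP43, VNN1, TMEM132A, CRTAM and PLCB4 have no listed start. Their regions lay near a gene end that may not be the start. The VNN1 region lay 946 bp outside the gene span. ACACB encodes the mitochondrial form of acetyl-CoA carboxylase, PLCB4 a phospholipase C and HFM1 a helicase of meiosis. The HFM1 region covered 803, 628 and 501 bp in SORL1-KO and was called in 12 of the 15 other libraries, PLCB4 covered 501, 659 and 1578 bp, and ACACB 501 bp in each.

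Outside start sites, 3 WT-only regions far from genes were called in 14 of the 15 other libraries. They were chr2:192459785-192461061 with 501, 626 and 1075 bp in WT, chr11:15692508-15693311 with 501, 501 and 804 bp, and chr16:51982567-51983230 with 628, 501 and 635 bp. Among SORL1-KO-only regions, 1 was called in none of the 15, chr1:107782059-107782697 inside VAV3, with 501, 501 and 639 bp in SORL1-KO. VAV3 encodes a signalling protein downstream of immune receptors, and a second SORL1-KO-only region lay in the same gene. Regions inside WWC1 and AGTR1 and near NSUN7 were called in 1 of the 15, and those near PDCD5 and ERCC1, inside AVPR1B and ROS1 and on chromosome 6 at chr6:169999130-169999862 in 2.

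In the other lines these regions were neither constant nor absent. The WT-only regions were called in a median of 6 of 15 other libraries, 5 of them in none and CAT alone in all 15. The SORL1-KO-only regions were called in a median of 5, 1 of them in none and none in all 15. Over all 123458 regions the median was 9, with 9.06% called in none and 22.1% in all 15. By line, calls at WT-only regions ranged from 29.3% of possible calls in TREM2-R47H and 35.0% in the libraries titled SORL1-A528T, whose genotype label reads TREM2-KO, to 54.4% in CD33 SNP. Calls at SORL1-KO-only regions ranged from 11.0% in SORL1-A528T to 52.9% in TREM2-R47H. SORL1-A528T, the other line titled for an edit of SORL1, called none of the 109 SORL1-KO-only regions in all 3 of its libraries and 78 of them in none. Its lists held 69636, 39711 and 78373 peaks on the chromosomes used, against 93109, 60800 and 99103 in CD33 SNP. The shares of each line over all regions were not computed. These shares therefore have no background beside them, and the part of list length was not tested.

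**Figure D3:**
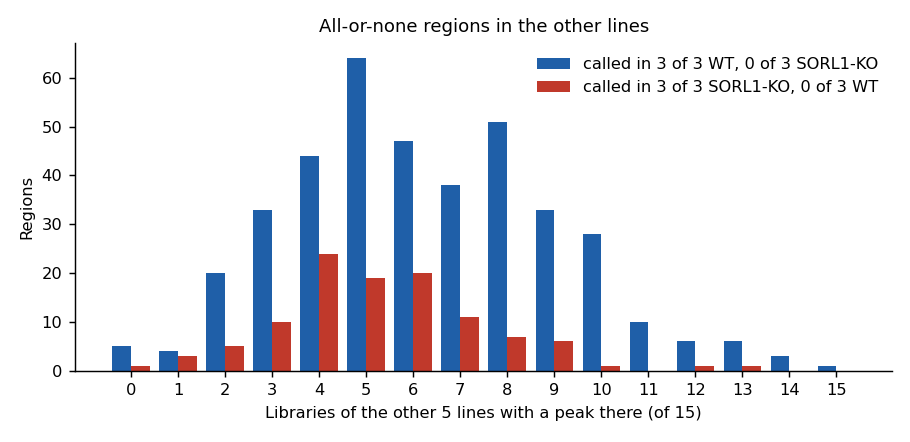
Number of regions (vertical axis) by how many of the 15 libraries of the other 5 lines had a peak there (horizontal axis), for the 393 WT-only regions (blue) and the 109 SORL1-KO-only regions (red). Both sets lie mostly in the middle of the range, and the single blue region at 15 is the CAT start site.

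Regions called in one line only lay away from genes more often than the regions that line's libraries shared. Of those called in 3 of 3 WT libraries, SORL1-KO called none for 0.0885% at start sites, 0.913% inside gene spans and 1.34% outside gene spans. Of the 393, 231 (58.8%) lay outside gene spans and 136 (34.6%) more than 100 kb from any gene, against 39.997% and 13.9% of all regions called in 3 of 3 WT libraries. SORL1-KO-only regions lay outside gene spans in 56 of 109 cases (51.4%), against 39.4% of all regions called in 3 of 3 SORL1-KO libraries. More than 100 kb from any gene lay 19.3% against 12.5%. Over all 123458 regions these shares were 45.9% and 17.4%, nearer to those of the SORL1-KO-only regions. Regions called in one line only were also weaker, and the part of strength in their placement was not tested. Over whole lists, the share of peaks outside gene spans was 42.1%, 41.0% and 42.8% in SORL1-KO replicates 1, 2 and 3 and 44.2%, 41.3% and 44.2% in WT. It was lower in SORL1-KO at each replicate number, by 1.27 percentage points on average, and the lines overlapped (exact two-sided permutation p = 0.3). The share at start sites was 14.4%, 18.2% and 14.0% against 12.8%, 19.2% and 12.4% (p = 0.6 by the same exact test), and median peak width was 662, 628 and 632 bp against 641, 630 and 628 bp (p = 0.7). WT-only regions were scattered, with at most 3 in any 1 Mb window.

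To compare places in the genome between lists of different length, a depth-adjusted call was used: from each call (1 or 0) was subtracted that library's average over all regions with the same number of calls among the 6 libraries. This evens out the libraries' mean call rates and not their tag numbers or their shares of tags in peaks. By construction the values of a feature sum to 0 over the 6 libraries, so the mean of SORL1-KO is the negative of that of WT. Grouped by the number of protein-coding genes, a grouping chosen after the data had been seen, 1 Mb windows showed a graded difference. In the 218 windows with 20 or more genes the values were 0.104, 0.00869 and 0.00383 in SORL1-KO and 0.00204, -0.0488 and -0.0699 in WT. The SORL1-KO libraries all lay above the WT libraries, by a small margin (difference of the means 0.0777, exact two-sided permutation p = 0.1, the smallest possible). Of the 218 windows 193 were higher in SORL1-KO, against 1190 of all 2786 windows tested. Windows share their libraries, so such counts are a description. Without SORL1-KO replicate 1 the difference of the means was 0.0451. In the 304 windows without a gene the values were -0.0971, 0.0223 and -0.0439 in SORL1-KO and 0.00963, 0.0608 and 0.0483 in WT. These overlapped (difference of the means -0.0792, exact two-sided permutation p = 0.2). Of the 304 windows 244 were lower, against 1595 of all 2786. Without SORL1-KO replicate 1 the difference of the means was -0.0475.

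**Figure D4:**
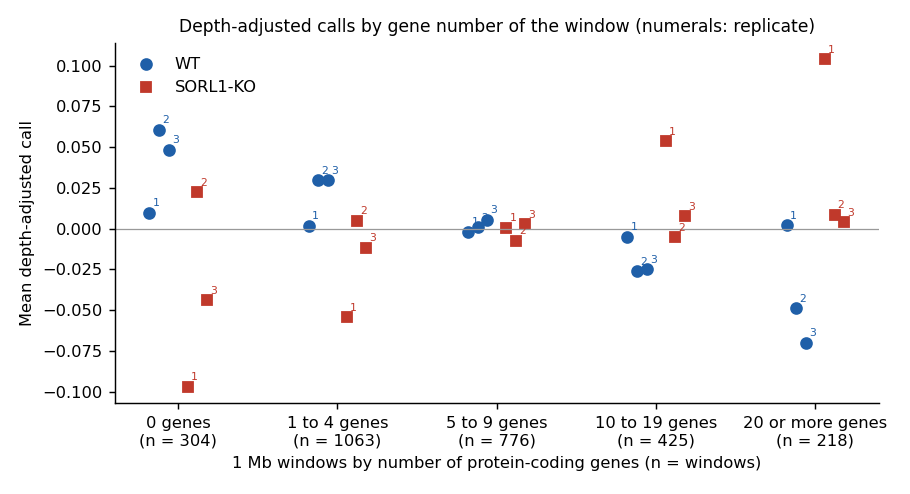
Mean depth-adjusted call (vertical axis, no unit) of 1 Mb windows grouped by how many protein-coding genes they hold (horizontal axis), with 1 point per library (circles WT, squares SORL1-KO, numerals the replicate). SORL1-KO replicate 1 is the farthest from 0 in both end groups, at -0.0971 and 0.104, and the lines cross between windows without genes and windows with 20 or more.

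No single window passed the test (limma, 2786 windows, 0 higher and 0 lower at an adjusted p below 0.05). Without adjustment, p was below 0.05 for 115 higher (4.13%) and 238 lower windows (8.54%). The lowest adjusted p was 0.123, at chr7:34000001-35000000, which holds BMPER, NPSR1 and DPY19L1. There SORL1-KO had -0.150, -0.108 and -0.174 and WT 0.151, 0.160 and 0.121. The lines lay apart there, which choice by the smallest p favours. The next lower windows held CYLC2 on chromosome 9, ATP8A1 with 4 more genes on chromosome 4, KLHL1 on chromosome 13 and CDH12 on chromosome 5, and they held 1 to 5 genes. The 5 leading higher windows were chr11:70000001-71000000 with 5 genes (ANO1, FADD, PPFIA1, CTTN and SHANK2), chr22:50000001-51000000 with 31, chr17:50000001-51000000 with 26, chr1:158000001-159000000 with 25 and one on chromosome 8 with 3 (SLC18A1, ATP6V1B2 and LZTS1). With lists of equal length the chromosome 11 window differed by -0.03.

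Whole chromosomes did not pass either (limma, 23 chromosomes, 0 at an adjusted p below 0.05, lowest 0.146). At an unadjusted p below 0.05, 3 were higher in SORL1-KO (13%), chromosomes 16, 20 and 22, and 2 were lower (8.7%), chromosomes 4 and 7. Chromosome 22 differed by 0.14, 0.04 and 0.11 in replicates 1, 2 and 3 and chromosome 4 by -0.07, -0.03 and -0.05. The sign was the same at all 3 replicate numbers for 21 of 23 chromosomes, 12 higher and 9 lower. Without replicate 1 of both lines 7 chromosomes passed the limma test, 16, 17, 19, 20, 21 and 22 higher and 4 lower. With the replicate number as a block, 4 passed (limma, lowest adjusted p 0.00514), 17, 19 and 22 higher (13%) and 4 lower (4.35%). Once each line's mean was subtracted from these values, same-numbered libraries correlated at 0.84, 0.097 and 0.92. Differently numbered pairs ranged from -0.90 (SORL1-KO replicate 3 with WT replicate 1) to 0.81 (SORL1-KO replicate 2 with WT replicate 3). Nothing in the labels ties the numbers across lines. Across the 23 chromosomes the difference went with genes per Mb (Pearson correlation 0.61, Spearman rank correlation 0.64). This correlation is a description, since chromosomes share their libraries.

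Per gene, depth-adjusted calls were averaged over the regions nearest to it, and 6979 genes with at least 5 regions were tested. None passed (limma, 0 higher and 0 lower, lowest adjusted p 0.546). Without adjustment, 376 genes were higher in SORL1-KO (5.39%) and 249 lower (3.57%) at p below 0.05. The 5 leading genes in each direction are given as a description. ADCY3, an adenylyl cyclase, had 0.173, 0.177 and 0.169 in SORL1-KO and -0.124, -0.132 and -0.263 in WT over 6 regions. AGO1, of the small RNA silencing machinery, had 0.332, 0.190 and 0.127 against -0.197, -0.0903 and -0.362. The lines did not overlap at either gene, which choice by the smallest p favours. MARCHF10, a ubiquitin ligase of the membrane-bound RING family, LEP, the hormone leptin, and MCU, the pore of the mitochondrial calcium uniporter, followed with differences of 0.31 (SE 0.06), 0.40 (SE 0.09) and 0.26 (SE 0.06).

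Leading genes with lower values were HSD3B1, a steroid dehydrogenase, ADAM18, KDSR, an enzyme of sphingolipid synthesis, NAA35, which belongs to a complex that acetylates protein N termini, and DNAH6, an axonemal dynein. HSD3B1 had -0.256, -0.266 and -0.0961 in SORL1-KO and 0.131, 0.332 and 0.155 in WT over 6 regions. ADAM18 had no call in any SORL1-KO library over its 5 regions, while 53.3% of possible calls were made in WT. KDSR and NAA35 each held 1 WT-only region, with differences of -0.32 (SE 0.07) and -0.28 (SE 0.06). DNAH6 differed by -0.33 (SE 0.08), but by 0.01 when only the first 75% of each list was used. SORL1 itself, over 30 regions, had -0.00302, -0.0740 and 0.0271 in SORL1-KO and 0.0398, 0.0170 and -0.00684 in WT, which overlapped (difference -0.03, SE 0.06, limma adjusted p 0.870). APOE, the lipid carrier whose variants carry the strongest common Alzheimer risk, had too few regions for the test. Both of its regions were called in SORL1-KO replicates 1 and 3 and in 1 WT library each.

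The 16 lists of genes around SORL1 biology, microglial states and neighbouring pathways were described in the same way. Together they held 420 genes, of which 232 could be tested, and none passed. Of the 232, 147 (63.4%) had a higher value in SORL1-KO, against 51.1% of all tested genes, and an unadjusted p below 0.05 was reached by 17 (7.33%) with higher values and 1 (0.431%) with a lower value, against 5.39% and 3.57% of all tested genes. The medians were set beside 0.00206, the median over all tested genes.

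Among the sorting machinery, the SORL1 and VPS10 receptor list had 2 of 8 tested genes higher and 6 lower, with a median difference of -0.043. The list also held LRP1, LRP2 and LRP8, which are not VPS10 receptors. SORL1, SORT1, SORCS1, SORCS2 and SORCS3, which are, were all lower, as was LRP2. The 2 with higher values were LRP8, a receptor for reelin and apolipoprotein E, with a difference of 0.09 (SE 0.07), and LRP1. LRP1, an endocytic receptor for APP and apolipoprotein E, had 0.0509, 0.142 and 0.142 in SORL1-KO and -0.0966, -0.0830 and -0.156 in WT over 12 regions. With only the first 75% of each list LRP1 differed by -0.03. Retromer and endosomal recycling genes were higher in 11 of 18 (median 0.084). GGA1, a Golgi adaptor that binds the SORL1 tail, had 0.0268, 0.174 and 0.203 against -0.0950, -0.0656 and -0.243, and VPS35L, a subunit of the related retriever complex, differed by 0.25 (SE 0.08). SNX5, a sorting nexin of the retromer pathway, had 1 SORL1-KO-only region 38646 bp away with 501 bp in each library. Of APP and its secretases 8 of 9 were higher (median 0.072), led by APLP2, a homologue of APP, at 0.17 (SE 0.07).

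Lysosomal genes were higher in 13 of 20 (median 0.024). LAMP1, the major lysosomal membrane glycoprotein, had 0.137, 0.0828 and 0.136 in SORL1-KO and -0.124, -0.119 and -0.112 in WT over 5 regions, and PSAP, the precursor of the saposins, differed by 0.20 (SE 0.06). The lines did not overlap at LAMP1, which was named for its large difference. Lipid and cholesterol genes were higher in 10 of 17 (median 0.057), with none at an unadjusted p below 0.05. Catalase and antioxidant genes were higher in 6 of 15 (median -0.042) and peroxisome genes in 1 of 4 (median -0.015), again with none at an unadjusted p below 0.05. CAT was the only gene of these 2 lists that held a WT-only or SORL1-KO-only region.

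Disease-associated microglia genes, the set microglia turn on around plaques, were higher in 16 of 19 (median 0.091), and 4 of them had an unadjusted p below 0.05. TIMP2, a metalloproteinase inhibitor, had 0.238, 0.258 and 0.0808 in SORL1-KO and -0.0219, -0.130 and -0.424 in WT. FTH1, the heavy chain of ferritin, had 0.337, -0.0303 and 0.167 against -0.124, -0.0856 and -0.263. CCL4, a chemokine, differed by 0.31 (SE 0.08) and CD83, an activation marker, by 0.21 (SE 0.08). At all 4 genes the lowest SORL1-KO library was above the highest WT library. They were picked by their p from the same values, so this separation adds no evidence. Homeostatic microglia genes were also higher in 16 of 21 (median 0.061), led by OLFML3 at 0.23 (SE 0.07). Of the 16 lists, 13 had a median above that of all tested genes, so neither list stands apart by its direction. Alzheimer risk loci, which include SORL1, had 16 of 28 higher (median 0.011) and none at an unadjusted p below 0.05.

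Of the inflammatory and NF-kB genes 11 of 21 were higher (median 0.0071). TNFAIP3, which encodes the NF-kB inhibitor A20, differed by 0.16 (SE 0.06) over 22 regions and had 1 SORL1-KO-only region 85309 bp away, but differed by -0.01 with lists of equal length. AP-1 and early response genes were higher in 14 of 18 (median 0.067), and JUN had 1 WT-only region 73527 bp away with 501 bp in each WT library. Interferon response genes were higher in 7 of 8 (median 0.076). Myeloid transcription factors were higher in 15 of 23 (median 0.025), led by RUNX1 at 0.21 (SE 0.06) over 24 regions. Src, SYK and phosphoinositide signalling genes were higher in 11 of 18 (median 0.029), led by CSK, the kinase that restrains Src kinases, at 0.26 (SE 0.09), and held both SORL1-KO-only regions of VAV3.

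Matrix and mesenchymal genes went both ways, with 9 of 16 higher (median 0.033). COL5A1, COL6A3 and COL4A1 were higher at an unadjusted p below 0.05 by 0.39 (SE 0.10), 0.30 (SE 0.11) and 0.20 (SE 0.07), although the lines overlapped at COL6A3. COL3A1, a fibrillar collagen of connective tissue, was lower, with -0.253, -0.0600 and -0.0388 in SORL1-KO and -0.0200, 0.165 and 0.207 in WT. It had 1 WT-only region 53882 bp away, and FN1, fibronectin, had 1 inside the gene of 655, 501 and 632 bp. Over all 16 lists 4 genes held a WT-only region (CAT, JUN, FN1 and COL3A1) and 3 a SORL1-KO-only region (VAV3, SNX5 and TNFAIP3), where 1.46% and 0.506% of 17187 genes with a region did so.

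**Figure D5:**
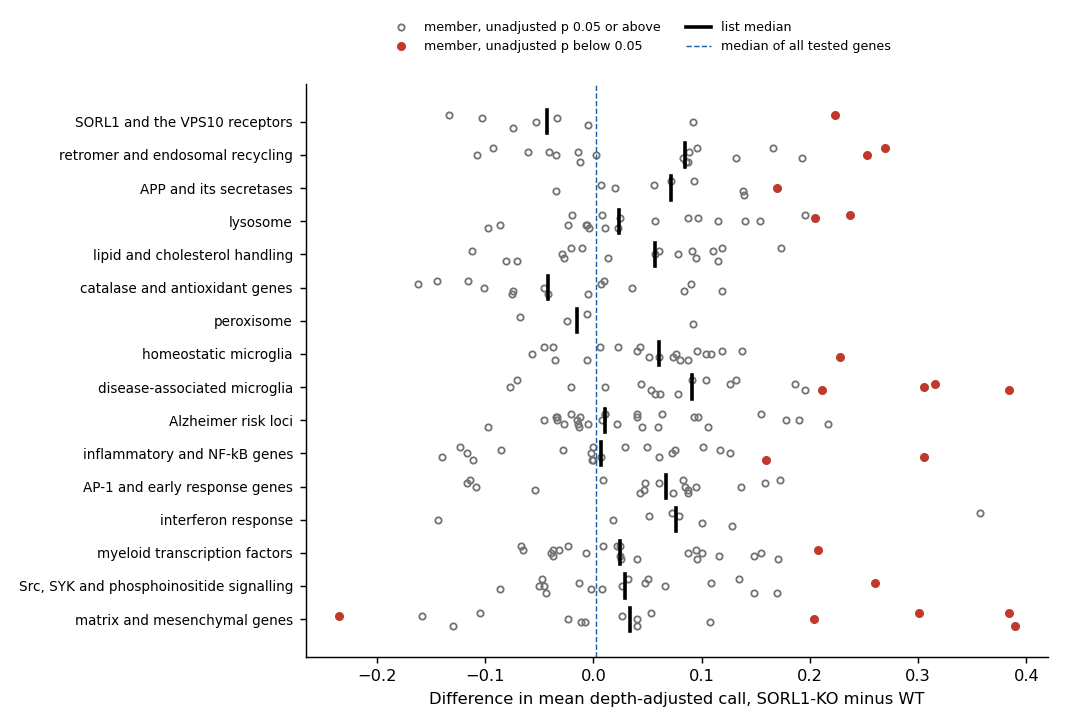
Difference in mean depth-adjusted call, SORL1-KO minus WT (horizontal axis, no unit), for each tested member of the 16 gene lists (rows; filled red points have an unadjusted p below 0.05, black bars are list medians, the dashed line is the median of all tested genes). Disease-associated microglia genes have the highest median at 0.091. The SORL1 and VPS10 receptor list, which also holds LRP1, LRP2 and LRP8, has the lowest at -0.043.

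Peak widths were compared at the 37330 regions called in all 6 libraries, as the log2 of covered bp centred on each library's median. None passed (limma, 0 wider and 0 narrower in SORL1-KO, lowest adjusted p 0.342). At an unadjusted p below 0.05, 584 were wider (1.56%) and 560 narrower (1.5%). Without replicate 1 of both lines 26 regions were wider and 13 narrower at an adjusted p below 0.05, and without WT replicate 1 alone 1 was wider. The region with the smallest p was chr1:199690246-199692082, outside gene spans, with 630, 501 and 626 bp in SORL1-KO and 1550, 1298 and 1776 bp in WT (log2 difference -1.38, SE 0.19). The lines lay far apart there, which choice by the smallest p favours. The 14 other libraries that called the region ranged from 501 to 1660 bp, which takes in all libraries of the 2 lines except WT replicate 3. A region inside TM4SF4 had 501, 501 and 627 bp against 1574, 1474 and 1301 bp. One inside HDAC8, a histone deacetylase on chromosome X, had 760, 501 and 663 bp against 1442, 1546 and 1588 bp. ROBO2, PID1, HJURP and SEL1L held or neighboured further narrower regions, with log2 differences of -1.45, -1.21, -1.03 and -0.98. The shallow SORL1-KO replicate 2 covered 501 bp at ROBO2, HJURP and SEL1L, close to the caller's smallest peak, and 626 bp at PID1.

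Among regions wider in SORL1-KO, a region at the start of PTPRG, a receptor tyrosine phosphatase, covered 4093, 2616 and 4104 bp in SORL1-KO and 2687, 1547 and 2065 bp in WT. Here SORL1-KO replicate 2 lay below WT replicate 1. One inside TNFRSF1B, a receptor for tumour necrosis factor, covered 2259, 792 and 2104 bp against 895, 501 and 897 bp, and one inside BLNK, a B cell linker protein, 1398, 1141 and 2047 bp against 1269, 501 and 631 bp. The shallow SORL1-KO replicate 2 lay below both deeper WT libraries at TNFRSF1B, and below WT replicate 1 alone at BLNK. A region outside gene spans on chromosome 4 and regions at or inside MREG, C1RL, MAML1 and TAF6 completed the 8, with log2 differences from 0.76 to 1.12. At each of these the shallow WT replicate 2 covered 501 bp, close to the smallest peak the caller reports. The part of this lower limit in the differences was not tested.

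As whole peak sets, libraries of one line were not more alike than libraries of different lines. The mean Jaccard index, the shared over the total covered bp of 2 lists, was 0.520 for 6 pairs within lines and 0.543 for 9 pairs between lines (exact two-sided permutation p = 1). SORL1-KO replicates 1 and 3 formed the most similar pair at 0.658. Between lines, replicates 1 and 3 gave 0.653 and 0.641 for the same number and 0.619 and 0.645 for different numbers, and the pair of WT replicates 1 and 3 gave 0.630. Pairs with a replicate 2 library lay lower, between 0.379 and 0.532. Within replicate number 1, 73433 regions were called in both lines, 21946 in WT only and 9338 in SORL1-KO only. In number 2 these were 38098, 7414 and 18221, and in number 3 they were 72418, 21058 and 9783. WT had the more unshared regions in numbers 1 and 3, and SORL1-KO in number 2.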

How the data were processed

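Tools listed by the submitters' processing notes, without their roles, were cutadapt 1.18, STAR 2.7, HOMER 4.10 and DESeq2. The authors called peaks with HOMER for each library, in histone style and with no control, per the file headers. The deposited score is 1 for every peak, so only file order ranked strength. The build and any shift for the transposase cut are not given in the sources used here. RefSeq GRCh38.p14 supplied gene names, starts and promoters. Of 15812 starts, 51.3% fell in regions shared by all 6 libraries, against 2.70% and 2.68% after shifting them 10000 bp either way. Chromosomes Y and M (0.0828% of peaks) were left out.

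Regions went to the nearest gene span no more than 100 kb away. Values were tested with limma 3.58.1 and Benjamini-Hochberg adjustment at 0.05 over genes (at least 5 regions), 1 Mb windows (at least 10), chromosomes and widths, and library values with exact permutation tests. On simulated calls, drawn independently for each region and library, the gene test ranked changed genes first but left them above the threshold. Such calls lack shifts shared between regions. A count of 0 therefore does not show that no gene changed. No test was made of single all-or-none regions. With each line's mean subtracted, same-numbered libraries correlated above 0.1 at all 3 numbers in widths only (0.26, 0.34 and 0.12). At other levels at least 1 correlation was lower: 0.84, 0.097 and 0.92 over chromosomes, 0.27, 0.030 and 0.16 over windows, and 0.058, -0.28 and 0.052 over genes.

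The text names SORL1, CAT and APOE, 5 genes, 8 widths and 5 windows per direction by p, 12 regions per direction (start sites first, then by calls in the other lines and place), and up to 4 members per list. List members with an unadjusted p below 0.05, regions kept at equal list lengths, ZNF717 and OR4M2B were singled out after their values were seen. Of 453 listed genes 452 matched. Members and lists were chosen with earlier results of these data known. Alternatives left out libraries, shortened lists, added a replicate block or changed filters and distances.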

Additional observations from a re-analysis of the deposited data

How the results depend on the processing

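Depth differed several-fold between replicate numbers, and with 3 libraries a line a single one can decide a region's call. Differences are SORL1-KO minus WT. Leaving out libraries moved the peak number between -20385 and 4464, the median width between -3 and 14 bp, the start-site share between -0.600 and 2.94 points and the Jaccard difference between -0.0730 and 0.00658. The peak number reversed without SORL1-KO replicate 2 (4464), WT replicate 1 (4258) or WT replicate 3 (3770), and the share without the same libraries (-0.600, -0.272 and -0.456). The Jaccard difference reversed without replicate 2 (0.00465) and without WT replicate 1 (0.00658). With equal list lengths the median width was -24.7 bp. WT-only regions ranged from 464 to 4901 and SORL1-KO-only regions from 116 to 1217 with libraries left out. Fewer libraries loosen the rule, so these counts could not fall. When replicates 1 and 3 decided alone they were 4901 and 1027, and with equal lists SORL1-KO-only regions were 287. Genes and 1 Mb windows passing numbered 0 under every alternative run. Without replicate 1, 26 regions were wider and 13 narrower, and without WT replicate 1, 1 was wider, against 0 in the other left-out fits. BLNK (1.42), PID1 (-1.55), HDAC8 (-1.47), TM4SF4 (-1.33) and the chromosome 1 region (-1.46) were among those passing. Chromosomes passing ranged from 0 to 7, the 7 without replicate 1, among them 4 (-0.05), 16 (0.04), 20 (0.04) and 22 (0.10). The cause was not tested.

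With a replicate block 4 chromosomes passed (17, 19 and 22 higher, 4 lower), and the block brought no gene, width or window past the threshold. Block p-values were 0.5 for the peak number (-4119), the median width (7.67 bp) and the start-site share (0.739 points), from exact sign flips within numbers that cannot go below 0.25. Single values that changed sign with the first 75% of each list were DNAH6 (0.0140), LRP1 (-0.0296) and CAT (-0.0362). With equal list lengths these were CAT (-0.171), TNFAIP3 (-0.00769) and the chromosome 11 window at ANO1 (-0.0279). SORL1 ranged from -0.0763 to 0.00764 and CAT from -0.0292 to 0.0355 with libraries left out, CAT being -0.0194 without replicate 3 and -0.0235 without SORL1-KO replicate 2. CAT was -0.0228 with all 21 libraries fitted. Windows with 20 or more genes and with none kept their direction in all alternatives run. At 20 or more genes, however, the lines overlapped once the lists were shortened.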
